A study of Caenorhabditis elegans with 3 samples.

Results

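The comparison described here sets young adult worms against L1 larvae of Caenorhabditis elegans, strain N2, a laboratory wild type, both taken as whole worms. Polyadenylated RNA was read on a nanopore device as native RNA strands, without copying into cDNA or amplification, so each read stands for 1 strand. The series holds 3 libraries, and 2 of them enter the comparison, with 1 library for each stage and no replicates. The third library, from mixed-stage embryos of the same strain, enters no comparison, and only its reads of marker genes and of some named genes are given. Genes were compared where the young adult and L1 libraries together held 20 or more reads, which 8043 of the 19194 genes in the deposited table met. The young adult library held 1611049 estimated reads and the L1 library 1017061.

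The L1 is the first larval stage after hatching, a small worm with a nearly complete nervous system, a functional gut and only the first cells of the germline and gonad. By the young adult stage the hermaphrodite has molted several times, has laid down the adult cuticle, has stored sperm, makes oocytes and secretes yolk proteins from the intestine. Because RNA came from whole animals, the share of a tissue in the body and its RNA per cell both enter each value, and fewer cells of a type cannot be told apart from less RNA per cell.

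The read share of a gene is its part of all reads in a library, and a fold is the ratio of the young adult share to the L1 share, or the inverse where the young adult share is the smaller. Bounds in parentheses are exact conditional binomial (Clopper-Pearson) 95% intervals, which cover counting error only and compare these libraries, not the stages. A gene was called higher or lower in the young adult library where the bound nearest to 1 was at least 2-fold from 1. Where a library had 0 reads of a gene, the fold is a lower bound taken against 3 reads in that library, which comes to 1.86 reads per 1000000 in the young adult library and 2.95 in the L1 library. Such a value leaves out counting error, and calls and ranks used the bounds of the interval. No p-value is given, since no replicate exists.

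Known markers of the germline, sperm, yolk, neurons and embryo followed the labelled stages where they had reads. The 10 hermaphrodite germline markers summed to 3851 young adult reads and 347 L1 reads, and 8 of them were higher in the young adult library. The 6 sperm markers summed to 2035 young adult reads and 124 L1 reads, and the 6 yolk protein genes, made in the adult intestine, to 8918 and 524 reads. The 10 neuronal markers summed to 843 young adult reads and 5888 L1 reads, with 8 lower. The adult cuticle collagen gene col-19, a hypodermis marker, had 1855 young adult reads and 39 L1 reads. The other hypodermis markers differed in direction, with col-12 at 519 and 105 reads, dpy-7 at 0 and 16, rol-6 at 3 and 16 and elt-3 at 0 in both. The embryo markers summed to 0 young adult reads, 45 L1 reads and 3536 embryo reads. The 45 L1 reads came from the collagen gene dpy-14, with 36, and the cuticlin gene cut-3, with 9, while the other 5 embryo markers were at 0. The L1 library also held reads of genes that mark adults, such as vit-2 with 270, gld-1 with 44 and msp-36 with 48, and their source was not tested. They enter the L1 side of every fold of an adult gene below.

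Of the 8043 compared genes, 1163 were higher in the young adult library (14.5%) and 1142 were lower (14.2%), while 5738 were called neither way. The median log2 ratio over all compared genes was 0.32. Differences of at least 10-fold at the nearest bound were held by 54 higher and 157 lower genes. Among the lower genes 62 had 0 young adult reads, and among the higher genes 35 had 0 L1 reads. Reads of any number were found in both libraries for 11485 genes. The 50 genes with most reads took 24.8% of the young adult library and 32.4% of the L1 library.

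**Figure D1:**
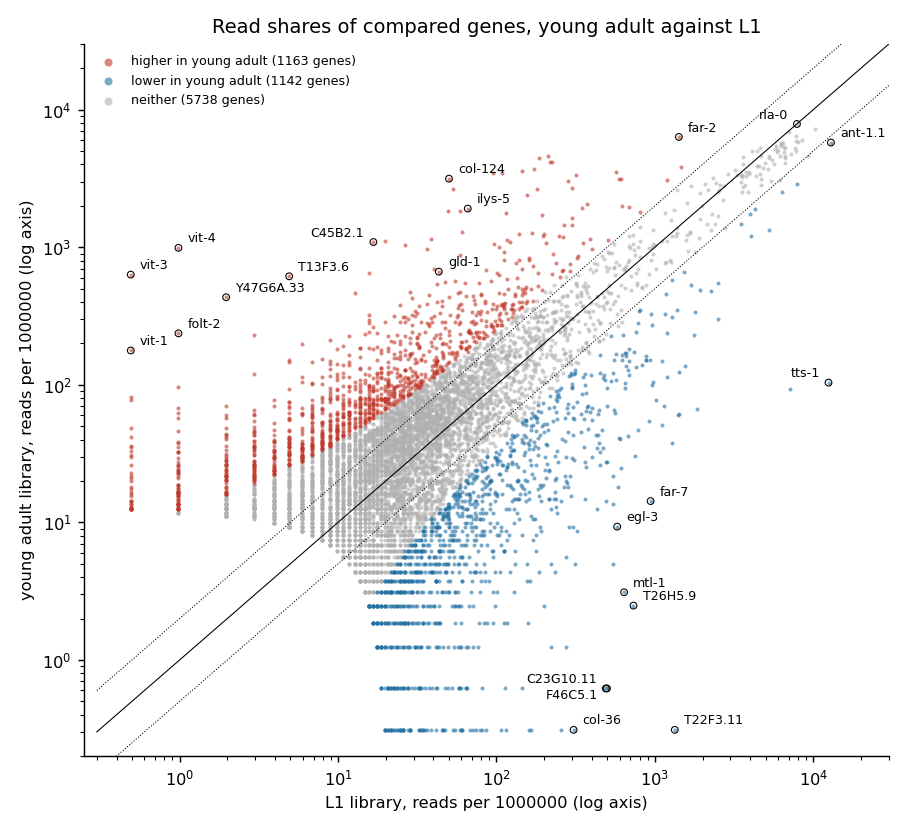
Reads per 1000000 of each compared gene in the young adult library (vertical) and the L1 library (horizontal), on log axes, with 1 point per gene; the solid line marks equal shares, the dotted lines a 2-fold difference, and a gene with 0 reads in a library is drawn at 0.5 read. The 1163 genes higher in the young adult library reach down to vit-3 and vit-1 at 0 L1 reads, and the 1142 lower genes reach down to T22F3.11 and col-36 at 0 young adult reads.

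The 15 higher genes with the farthest bounds were 3 yolk protein genes, 7 collagen genes, a folate transporter gene and 4 genes that have only a sequence name in the files. The yolk protein gene vit-4 (X, 3558769 to 3563965, WBcel235) had 1594 young adult reads and 1 L1 read, a ratio of 1006 (180 to 39771). Its neighbour vit-3 (X, 3567355 to 3572549) had 1018 and 0 reads, at least 214-fold higher (lower bound of the interval 174), and vit-1 (X, 7727889 to 7733168) had 286 and 0, at least 60.2-fold. Vitellogenin genes are near-identical copies that can exchange reads, so these single values are uncertain. The transporter gene folt-2 (V, 2872465 to 2875600) had 381 young adult reads, 1 L1 read and 10 embryo reads, a ratio of 241 (42.9 to 9525). Among the 4 genes without a gene name, Y47G6A.33 (I, 3564040 to 3565068) had 697 young adult reads and 2 L1 reads. C45B2.1 (X, 6086124 to 6086567) had 1757 and 17 reads, a 65.2-fold difference. Of the other unnamed genes T13F3.6 had 990 and 5 reads and C30G12.2 had 370 and 3. All 4 code for protein in the annotation, and none had more than 3 embryo reads.

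The 15 lower genes with the farthest bounds were 5 collagen genes, 5 genes with a sequence name only, the noncoding RNA gene tts-1, the metallothionein gene mtl-1, the alcohol dehydrogenase gene sodh-1, the lysozyme gene ilys-3 and the bestrophin channel gene best-1. T22F3.11 (V, 3612158 to 3614553) had 0 young adult reads and 1358 L1 reads, at least 717-fold lower (lower bound of the interval 582). F46C5.1 (II, 8820153 to 8821190) had 1 young adult read and 507 L1 reads, C23G10.11 (III, 6215164 to 6215576) had 1 and 498, and T26H5.9 (V, 15444916 to 15445420) had 4 and 745. None of these 4 genes had an embryo read, so in these libraries their reads lay almost wholly in the L1. The fifth, T20D4.12, had 0 young adult reads and 117 L1 reads, but its rows share read names with T20D4.10 (5 and 131 reads), so reads of these genes may be exchanged. Lysozymes cleave bacterial cell walls, and ilys-3 had 2 young adult reads and 279 L1 reads, a 221-fold difference (60.6 to 1834). The chloride channel gene best-1 had 8 young adult reads and 550 L1 reads, a 109-fold difference (54.9 to 254), and shares read names with best-2.

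Reproduction lists are given first. Major sperm proteins form the cytoskeleton of the crawling worm sperm and also signal to oocytes. Of 32 such genes, 26 were compared, 25 were higher and 0 lower. Of the 26, 11 had 20 or more reads only in the young adult library, so they entered the comparison through it. The same held for 25 of 39 other sperm genes, 10 of 28 oocyte and eggshell genes, 20 of 36 germ granule genes and 29 of 34 meiosis genes, and their counts below follow in part from that minimum. The major sperm protein genes together had 11720 young adult reads (0.727%) and 609 L1 reads (0.0599%), and the bounds of the fold were 11.2 and 13.2. The exception was msp-45, with 41 and 10 reads. The list of other sperm genes had 26 higher members of 39 and a median log2 ratio of 2.52. Among them the sperm chromatin genes spch-1, spch-2 and spch-3 had 331, 115 and 350 young adult reads, against 39, 14 and 29 L1 reads. The gene msrp-7, listed with sperm genes by its name, went the other way at 7 young adult reads and 74 L1 reads, 16.7-fold lower (7.73 to 43.1). Copies within the msp and nspd families are near-identical, so the family sum is firmer than any member.

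Of 28 genes of the oocyte and eggshell, 22 were higher, and the median log2 ratio was 2.63. The chondroitin proteoglycan genes cpg-1, cpg-2 and cpg-3, whose products form an inner eggshell layer, had 748, 1753 and 883 young adult reads, and the bounds of their folds were 3.66 and 5.57, 7.49 and 10.9, and 6.75 and 11.4. The cold-shock domain genes cey-2 and cey-3 had 4317 and 1703 young adult reads against 305 and 98 L1 reads, at 8.94-fold (7.95 to 10.1) and 11-fold (8.95 to 13.6). Their relative cey-1, counted with the germ granule genes below, was lower, at 194 young adult reads and 316 L1 reads, a 2.58-fold difference (2.15 to 3.10). Within the cpg family cpg-9 was higher (306 and 11 reads, 17.6-fold) and cpg-7 lower (57 and 123 reads, 3.42-fold). The yolk receptor gene rme-2 had 446 and 59 reads, a 4.77-fold difference (3.63 to 6.37). The second lower member of this list was the caveolin gene cav-1, with 11 young adult reads and 37 L1 reads.

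Germ granules are RNA and protein bodies of germ cells. Of 36 genes of germ granules and germline RNA regulation, 23 were higher and 1, cey-1, described above, was lower. Their largest member by reads, car-1, an RNA-binding component of these granules, had 2056 young adult reads and 170 L1 reads. The RNA helicase gene glh-1 had 388 and 30 reads, an 8.16-fold difference, and the nanos gene nos-2 had 31 and 2. Of 34 meiosis genes 14 were higher and 0 lower, and the higher ones included the crossover gene cosa-1 with 50 and 3 reads and the axis gene him-3 with 198 and 31. Of 26 maternal determinants of the early embryo 15 were higher and 12 reached 20 reads only in the young adult library, with the katanin subunit gene mei-2 at 296 and 14 reads, a 13.3-fold difference (7.83 to 24.7). Of 18 compared Argonaute and small RNA pathway genes 6 were higher and 0 lower. These were hrde-1, ppw-1, csr-1, wago-4 and wago-1, from 3.57-fold to 7.83-fold, and prg-2, a Piwi relative classed as a pseudogene in the annotation, at 19.1-fold (8.63 to 52.9) with 182 and 6 reads. Of the 18, 8 reached 20 reads only in the young adult library. The Piwi gene prg-1 was not called, at 194 and 52 reads.

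**Figure D2:**
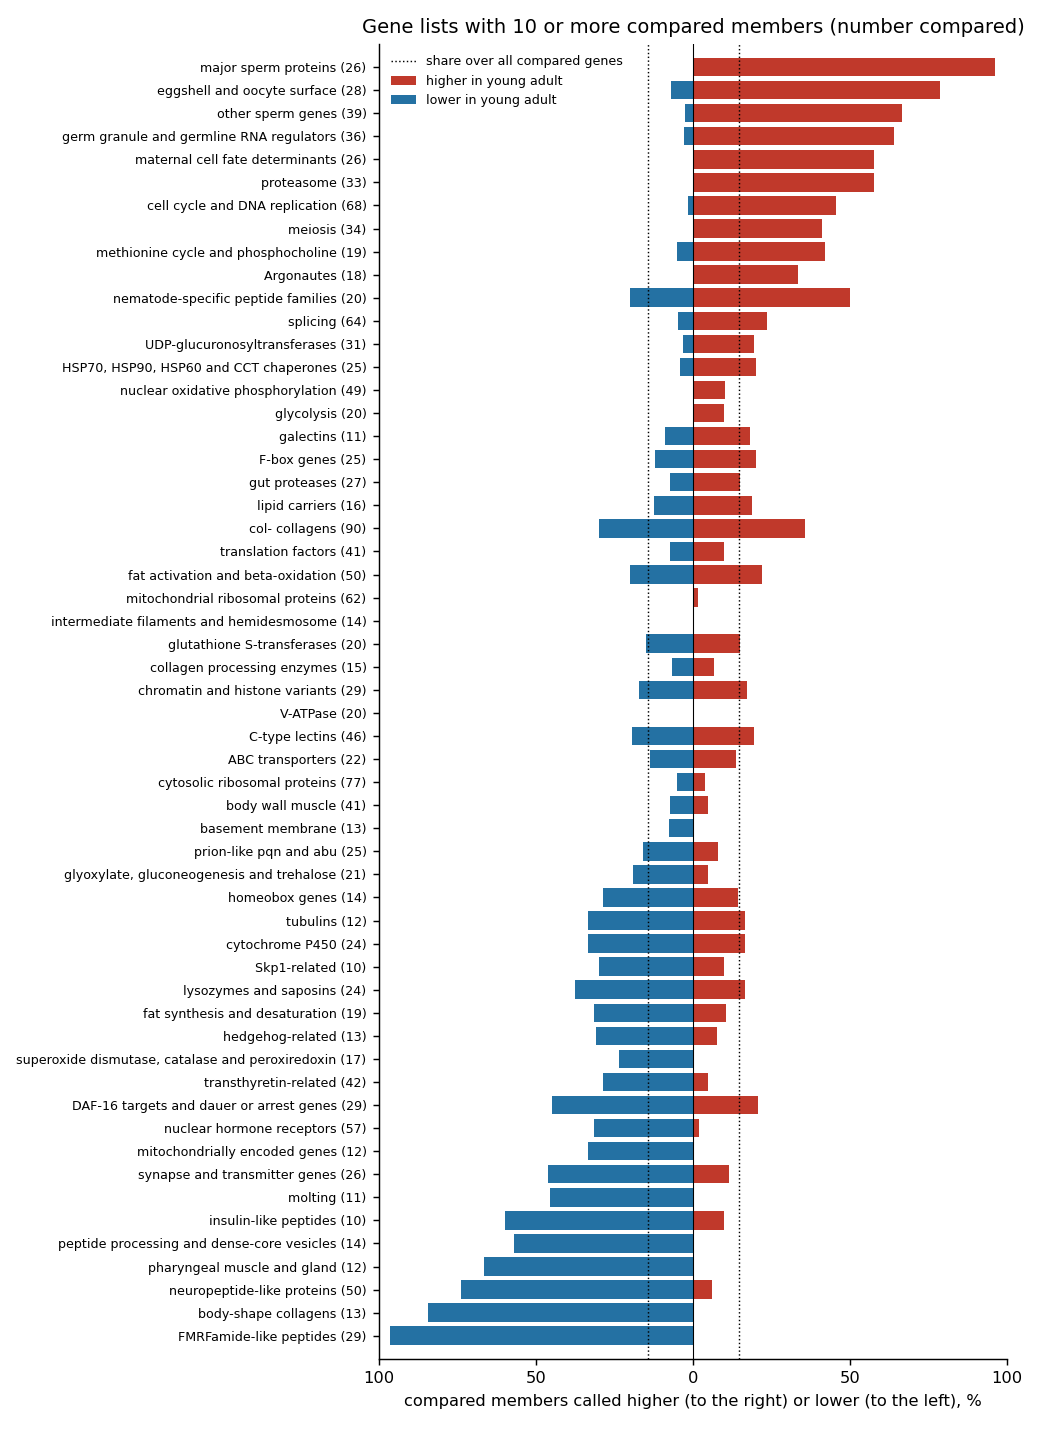
Share of the compared members of each gene list that were higher (red, to the right) or lower (blue, to the left) in the young adult library, with the number compared in parentheses and dotted lines at 14.5% higher and 14.2% lower, the shares over all compared genes. Major sperm protein genes stand at the top with 25 of 26 higher, and FMRFamide-like peptide genes at the bottom with 28 of 29 lower.

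Of 68 compared genes of the dividing cell 31 were higher and 1 was lower, and 33 of the 68 reached 20 reads only in the young adult library. The B-type cyclin genes cyb-1, cyb-2.1, cyb-2.2 and cyb-3 had 539, 89, 439 and 665 young adult reads, against 45, 9, 30 and 73 L1 reads. The replication clamp gene pcn-1 had 308 and 60 reads, a 3.24-fold difference (2.45 to 4.35). The lower gene was cki-1, an inhibitor of the G1 cell cycle kinases, with 9 young adult reads and 41 L1 reads, 7.22-fold lower (3.45 to 16.9). Germ cells are the main dividing cells of the adult, and the higher genes here moved with the germline markers, whose part in this result was not tested.

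Of 33 proteasome subunits 19 were higher and 0 lower, around a median log2 ratio of 1.36. They spanned the core (pas-2, 627 and 114 reads) and the regulatory particle (rpn-7, 549 and 78 reads, 4.44-fold, 3.50 to 5.71). The paired genes rpn-6.1 and rpn-6.2 were both higher, with 428 and 52 young adult reads, against 87 and 4 L1 reads. Splicing genes were higher for 15 of 64, including the core snr genes snr-1 to snr-5. Of the 64, 11 reached 20 reads only in the young adult library and 4 only in the L1 library. The 3 lower members, exc-7, mec-8 and sup-12, are RNA-binding regulators of alternative splicing in neurons, epidermis or muscle. They had 4, 8 and 8 young adult reads, against 41, 50 and 55 L1 reads, so they entered the comparison through the L1 library.

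The share of cytosolic ribosomal protein genes was 28.2% in the young adult library and 33.5% in the L1 library, and 70 of the 77 compared members were called neither way. Of the 7 exceptions rpl-11.1, rpl-25.2 and rpl-41.1 were higher and rpl-11.2, rpl-22, rpl-24.2 and rpl-39 lower. The copy rpl-11.1 was higher, at 5014 young adult reads and 618 L1 reads, 5.12-fold (4.71 to 5.58), while rpl-11.2 was lower, at 2159 and 5337 reads, 3.92-fold (3.72 to 4.12). The copy rpl-25.2 was higher, at 6194 and 1493 reads, while rpl-25.1 had 882 and 788 and was not called. The translation factor eIF5A showed the same kind of pair: iff-1, known for its role in the germline, was 4.84-fold higher (2345 and 306 reads), and iff-2 was 3.54-fold lower (530 and 1185 reads). Because the copies are alike in sequence, their single values are uncertain. The elongation factor genes eef-2 and eef-1A.2 were also lower, at 4092 and 503 young adult reads, against 6464 and 1311 L1 reads.

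Linker histones bind DNA between nucleosomes, and their genes divided the libraries. The genes hil-4 and hil-5 were higher, with 490 and 72 young adult reads against 39 and 8 L1 reads. The genes hil-1, hil-3, hil-7 and his-24 were lower, with 8, 5, 0 and 13 young adult reads, against 319, 48, 75 and 181 L1 reads. These lower genes entered the comparison through the L1 library, and hil-5 through the young adult library. The largest of these differences with reads in both libraries was hil-1 at 63.2-fold (31.7 to 148). Variants of histone H3 behaved likewise. The gene his-74 was higher (248 and 8 reads, 19.6-fold, 9.78 to 45.8), his-71 was lower (93 and 274 reads, 4.67-fold) and his-72 was not called, at 486 and 308 reads. Over the whole chromatin list 5 of 29 genes were higher and 5 lower, near the 14.5% and 14.2% over all compared genes. Of the 29, 8 reached 20 reads only in the young adult library and 4 only in the L1 library.

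Nuclear genes of oxidative phosphorylation were called for 5 of 49, all higher, a smaller share than the 14.5% over all compared genes. Among them asb-1, a germline copy of an ATP synthase subunit gene, had 740 young adult reads and 81 L1 reads, a 5.77-fold difference (4.58 to 7.35). Its partner asb-2 had 569 and 530 reads and was not called. The complex II gene sdha-2 was higher (181 and 19 reads) and its partner sdha-1 was not called, with a ratio of 0.643 (0.490 to 0.844). In glycolysis the same held for the GAPDH genes, with gpd-1 and gpd-4 at 598 and 213 young adult reads against 46 and 16 L1 reads. The genes gpd-2 and gpd-3, whose rows share read names, were not called. Mitochondrially encoded messages were lower for 4 of 12, with ctc-1 at 1930 young adult reads and 4137 L1 reads, 3.40-fold lower (3.22 to 3.59). The ADP/ATP carrier gene ant-1.1 was 2.24-fold lower at 9286 and 13135 reads.

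Of 21 genes of the glyoxylate cycle, gluconeogenesis and trehalose synthesis, 4 were lower and 1 was higher, with the lower share near the 14.2% over all compared genes. The glyoxylate cycle lets fat be turned into sugar, and its enzyme gene icl-1 had 200 young adult reads and 1440 L1 reads, 11.4-fold lower (9.83 to 13.3). The alcohol dehydrogenase gene sodh-1 (V, 11888248 to 11889650) had 151 and 7219 reads, 75.7-fold lower (64.5 to 89.6), the gluconeogenic gene pck-1 180 and 476, and the trehalose synthase gene tps-1 21 and 74. The lysosomal lipase genes lipl-1, lipl-2 and lipl-3 had 1, 3 and 2 young adult reads, against 53, 56 and 33 L1 reads. The acyl-CoA synthetase gene acs-2, a known fasting-induced gene of fat oxidation, had 61 and 1312 reads, 34.1-fold lower (26.3 to 44.8). Other fat oxidation genes were higher, such as acdh-1 with 3233 and 630 reads and ech-6 with 1435 and 230. The whole list had 11 higher and 10 lower of 50, against 14.5% and 14.2% over all compared genes. Of the 50, 9 reached 20 reads only in the young adult library and 6 only in the L1 library. The desaturase genes fat-2, fat-3 and fat-4 were lower, at 879, 244 and 559 young adult reads, against 2557, 941 and 819 L1 reads. The gene fat-7 was higher with 48 young adult and 0 L1 reads, at least 10.1-fold, and fat-6 was not called at 1032 and 930.

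The methionine cycle supplies methyl groups, and with phosphocholine synthesis its genes were higher for 8 of 19, with a median log2 ratio of 1.26. Of the 19, 6 reached 20 reads only in the young adult library, so both values follow in part from that minimum. The S-adenosylhomocysteine hydrolase gene ahcy-1 had 5012 young adult reads and 605 L1 reads, 5.23-fold higher (4.81 to 5.70). The serine hydroxymethyltransferase gene mel-32 had 1337 and 164 reads, and folt-2, described above, belongs to the same list. The enzymes that methylate phosphoethanolamine in sequence went opposite ways. The gene pmt-1, for the first step, was lower at 261 and 898 reads, 5.45-fold (4.74 to 6.28), and pmt-2, for the later steps, was higher at 9.73-fold, with 1618 young adult reads.

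Digestive and defence genes of the intestine also divided within families. Invertebrate-type lysozyme gene ilys-5 was higher at 3075 young adult reads and 67 L1 reads, 29-fold (22.7 to 37.5), whereas ilys-3, given above, was lower. Of the saposin-like genes, spp-17 was higher (1045 and 16 reads, 41.2-fold) and spp-4 higher (159 and 11), while 7 others were lower, such as spp-1 (113 and 510) and spp-14 (850 and 1717). Rows of spp-4 share read names with the lower gene spp-5 (1066 and 1548), so reads of these genes may be exchanged. The cathepsin B gene cpr-5 was 14.8-fold higher (1404 and 60 reads, 11.4 to 19.5) and cpr-1 was 2.32-fold lower (553 and 811). Fatty acid and retinol binding protein genes split in the same manner. The gene far-2 had 10200 young adult reads and 1441 L1 reads, 4.47-fold higher, far-7 had 23 and 955, 65.8-fold lower, and far-1 was not called at 1874 and 1917. Of 42 transthyretin-related genes 12 were lower and 2 higher. C-type lectins had 9 higher and 9 lower of 46, from clec-87 with 2010 and 141 reads to clec-17 with 1 and 115. Over all compared genes 14.5% were higher and 14.2% lower, and the lectin shares lay near these. Of the 46 lectins, 16 reached 20 reads only in the young adult library and 8 only in the L1 library. Of 20 compared subunits of the vacuolar proton pump 0 were called.

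Among lists with 10 or more compared members, FMRFamide-like peptide genes had the largest share of lower members. FMRFamide-like peptides are short neuronal signals cut from precursors, and 28 of 29 compared flp genes were lower and 0 higher. Their joint reads were 784 in the young adult library (0.0487%) and 6580 in the L1 library (0.647%). Of the 29, 14 had 20 or more reads only in the L1 library, so they entered the comparison through that library, as did 22 of 50 neuropeptide-like genes and 8 of 13 collagens that shape the body. The exception flp-10 had 26 and 29 reads. Other neuropeptide-like genes were lower for 37 of 50. The 3 higher members were nlp-24 (594 and 114 reads), nlp-26 (191 and 25) and nlp-4 (35 and 0). The gene nlp-12, which acts in a motor feedback circuit, had 23 young adult reads and 501 L1 reads, 34.5-fold lower (22.7 to 54.9), and nlp-40, an intestinal peptide that times defecation, was not called at 432 and 599.

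Of 14 genes of peptide processing and dense-core vesicles 8 were lower, and 5 of the 14 reached 20 reads only in the L1 library. The prohormone convertase gene egl-3 had 15 and 588 reads, its chaperone gene sbt-1 had 82 and 1131, the carboxypeptidase gene egl-21 had 97 and 1427, and the amidating enzyme gene pghm-1 had 40 and 617. Synapse and transmitter genes were lower for 12 of 26, of which 9 reached 20 reads only in the L1 library. An example was ric-4 at 8.60-fold (5.72 to 13.4) on 28 young adult reads. The synaptobrevin gene snb-1 was not called, at 393 young adult reads and 338 L1 reads. The 3 higher genes of that list all make monoamines. They were tdc-1 and tbh-1, which make tyramine and octopamine and are also known from the gonadal sheath, at 136 and 207 young adult reads against 26 and 27 L1 reads, and bas-1 at 60 and 3. Insulin-like peptide genes were lower for 6 of 10, and 5 of the 10 reached 20 reads only in the L1 library. The 1 higher call, ins-13 at 124 and 0 reads, cannot be separated from acdh-2 at 132 and 0, since these genes overlap on the same strand (II, 5544512 to 5544864 and 5544778 to 5547492) and share read names. None of the 39 cilium and intraflagellar transport genes reached 20 reads, with 30 young adult reads and 102 L1 reads in all.

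The cuticle is rebuilt at each molt from collagens specific to the stage. The joint share of the col- collagen genes was 6.53% in the young adult library and 1.05% in the L1 library, and of 90 compared 32 were higher and 27 lower. Of the 90, 12 reached 20 reads only in the young adult library and 26 only in the L1 library. Both counts follow in part from that minimum. The higher set held the most abundant members, with col-122 at 7475 young adult reads and 215 L1 reads, col-80 at 7170 and 188, and col-181 at 6730 and 229. The farthest by bound was col-124 (IV, 10216451 to 10217617) at 5071 and 51 reads, 62.8-fold higher (47.7 to 84.4). Most higher collagens still had L1 reads, and 3 of the 32 (col-7, col-62 and col-135) had 0. The lower set was smaller in reads, and its members at or near 0 young adult reads entered the comparison through the L1 library. The genes col-36 (II, 7167511 to 7168812), col-37 (V, 12166706 to 12167753), col-2 (IV, 10084439 to 10085451) and col-158 (V, 11829582 to 11831219) had 0 young adult reads and 312, 259, 167 and 164 L1 reads, at least 165-fold, 137-fold, 88.2-fold and 86.6-fold lower. The genes col-40 and col-43 had 1 and 2 young adult reads and 147 and 224 L1 reads. Both col-2 and col-40 are known for expression in the dauer larva, a dormant stage, and the other dauer markers were not called (daf-28, 13 and 18 reads) or had too few reads (cut-1, 0 and 5). Some neighbouring collagens share read names, among them col-93 with col-92 and col-159 with col-160, so their single folds are uncertain.

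**Figure D3:**
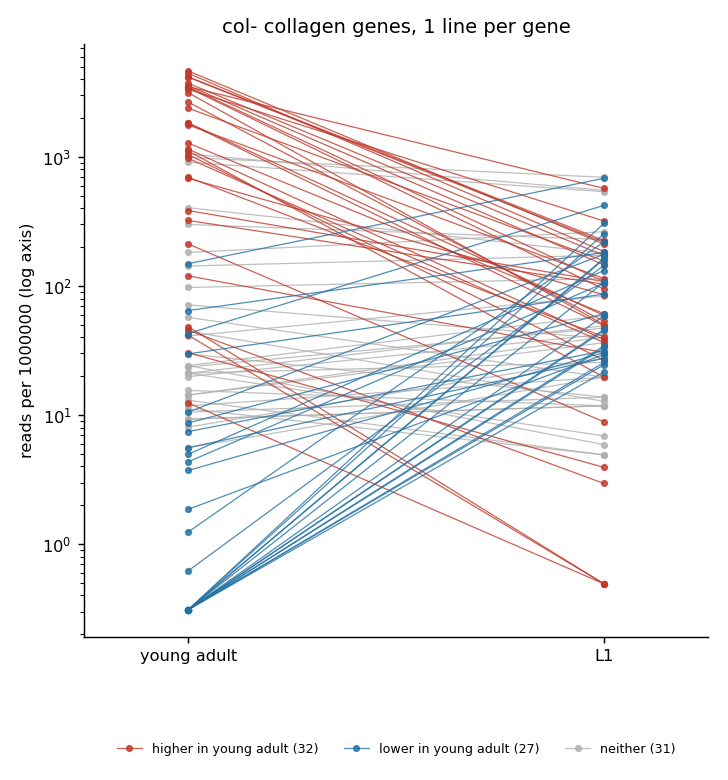
Reads per 1000000 of the 90 compared col- collagen genes in the young adult library (left) and the L1 library (right), on a log axis, with 1 line per gene and 0 reads drawn at 0.5 read. The 32 higher genes include all those with the largest young adult shares, such as col-122 with 7475 reads, and the lines of many of the 27 lower genes end at 0 young adult reads.

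Collagens that shape the body, known from dumpy, roller and squat mutants, had 11 lower and 0 higher members of 13. The gene rol-8 had 15 young adult reads and 292 L1 reads, 30.8-fold lower (18.4 to 55.8), dpy-5 had 34 and 175, and sqt-3 had 29 and 126. The members not called were dpy-4 (45 and 51 reads) and bli-6 (120 and 37). Of 11 compared molting genes 5 were lower and 0 higher, and 5 of the 11 reached 20 reads only in the L1 library. The lower genes included the lipoprotein receptor gene lrp-1 with 6 and 42 reads. Collagen processing enzymes had 1 higher and 1 lower of 15.

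Muscle genes were listed by organ. Body wall muscle genes were called for 5 of 41, with 2 higher and 3 lower, smaller shares than the 14.5% and 14.2% over all compared genes. The main myosin gene unc-54 was not called, at 216 young adult reads. The minor myosin gene myo-3 was 5.01-fold lower (55 and 174 reads). Of 12 pharyngeal muscle and gland genes 8 were lower and 0 higher, with the pharyngeal myosin genes myo-1 and myo-2 at 25 and 23 young adult reads, against 82 and 74 L1 reads. Of the 12, 3 reached 20 reads only in the L1 library. The troponin C gene tnc-2 had 183 and 358 reads, 3.10-fold lower (2.59 to 3.72). Of the 4 actin genes listed here, which need not be the whole family, act-2 was 5.52-fold higher at 3080 and 352 reads. The gene act-5, the actin of intestinal microvilli, was 4.30-fold higher at 184 and 27. Actin coding sequences are nearly the same, so reads of act-2, act-3 and act-4 may be exchanged. The tubulins of the touch receptor neurons, mec-7 and mec-12, were lower (17 and 32 young adult reads, 46 and 94 L1 reads), while tba-2 and tbb-1 were higher (1352 and 1085 young adult reads, 329 and 262 L1 reads).

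Genes known as targets of the FOXO factor DAF-16, or from dauer and arrested larvae, had 13 lower and 6 higher members of 29. Over all compared genes 14.2% were lower and 14.5% higher. Of the 29, 6 reached 20 reads only in the L1 library and 3 only in the young adult library. The metallothionein gene mtl-1 (V, 6691371 to 6691863) had 5 young adult reads and 650 L1 reads, 206-fold lower (87.8 to 636). The small heat shock gene hsp-12.3 had 22 and 555 reads, 40-fold lower (26.1 to 64.3), dod-3 had 4 and 204, the superoxide dismutase gene sod-3 24 and 141, and the transhydrogenase gene nnt-1 1 and 82. The higher members were dct-16, with 4282 and 183 reads, sip-1, a small heat shock gene of the germline, with 2634 and 307, dod-19, dod-23, dod-24 and daf-18. The list was drawn up with earlier results of these libraries known, so its direction is not independent evidence. The heat-inducible genes hsp-16.2 and hsp-16.41 were not called, at 40 and 51 young adult reads and 30 and 40 L1 reads.

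Among regulators, 57 of 248 nuclear hormone receptor genes had enough reads, and 18 were lower and 1 higher. Of the 57, 22 reached 20 reads only in the L1 library. The lower gene with most reads was nhr-21, at 23 and 258 reads, 17.8-fold lower (11.6 to 28.5), and the higher gene was nhr-114, known to act in the intestine and germline, at 237 and 21 reads, 7.12-fold (4.55 to 11.7). The homeobox genes ceh-13, ceh-20, ceh-32 and ceh-37 were lower, on 4 to 11 young adult reads and 16 to 88 L1 reads, and pal-1 and ceh-49 were higher. Of 14 compared homeobox genes 3 reached 20 reads only in the L1 library and 2 only in the young adult library. Of 20 compared genes of the nematode-specific peptide families 10 were higher and 4 lower, against 14.5% and 14.2% over all compared genes. Of the 20, 10 reached 20 reads only in the young adult library and 2 only in the L1 library. In these families 7 nspd genes, a group tied to sperm, were higher, while nspc-16, nspc-17, nspc-18 and nspc-20 were lower, with nspc-20 at 223 and 848 reads. Within the nspc family nspc-1 and nspc-7 were higher, at 65 and 113 young adult reads against 5 and 4 L1 reads.

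Several noncoding genes lay on the lower side. The gene tts-1 (X, 1504131 to 1504841), a long noncoding RNA known to associate with ribosomes in long-lived and dauer worms, had 167 young adult reads and 12682 L1 reads, a 120-fold difference. Its L1 level was 12469 reads per 1000000, and its rows share names with F09E10.14. Its relative by name tts-2 had 7 and 75 reads. The gene rncs-1 had 191 and 700 reads, T05E11.9 had 238 and 1126, and Y53F4B.45 had 76 and 792. Mitochondrial ribosomal RNA was lower too, at 486 and 2544 reads for the large subunit gene MTCE.33, 8.29-fold (7.52 to 9.16), and 182 and 1214 for the small subunit gene MTCE.7, 10.6-fold (9.03 to 12.4). These differences were larger than that of any of the 12 mitochondrial protein genes, of which nduo-5 had the largest at 5.54-fold (4.41 to 6.99). By annotated class, 4 of 7 long intergenic and 9 of 23 other noncoding RNA genes were lower, against 1117 of 7967 protein-coding genes, while 0 of 7, 3 of 23 and 1151 of 7967 were higher.

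Chromosomes differed in the same comparison. On the X chromosome 895 genes were compared, with 8.38% higher and 25.4% lower and a median log2 ratio of -0.71. On the autosomes together 7127 were compared, with 15.3% higher and 12.7% lower and a median of 0.44. Chromosome V lay between, with 14.3% higher, 19.6% lower and a median of 0.03, and chromosomes I and III had the smallest shares of lower genes, 8.55% and 8.50%, with medians of 0.56 and 0.47. The joint share of X-linked genes was 6.85% in the young adult library and 8.85% in the L1 library. In germ cells of the hermaphrodite the X chromosome is known to be largely silent, and the germline markers, at 3851 young adult reads and 347 L1 reads, moved with this difference, and their part in it was not tested. The higher yolk genes vit-1 to vit-5 lie on the X. The difference was also present when genes of the reproduction, neuron and cuticle lists were left out, an alternative chosen after seeing the data, with 23.2% of X genes and 11.9% of autosomal genes lower. This kept 827 of the 895 X genes and 6663 of the 7127 autosomal genes. Most compared genes thus stayed in, and the alternative is no test of the part of the germline or neurons. By depth, 24.5% of X genes and 15.4% of autosomal genes were lower at 20 to under 50 reads, 26.4% and 10.3% at 50 to under 200, and 41 of 163 X genes and 221 of 1539 autosomal genes at 200 or more. Genes are not independent replicates, and no test was made.

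**Figure D4:**
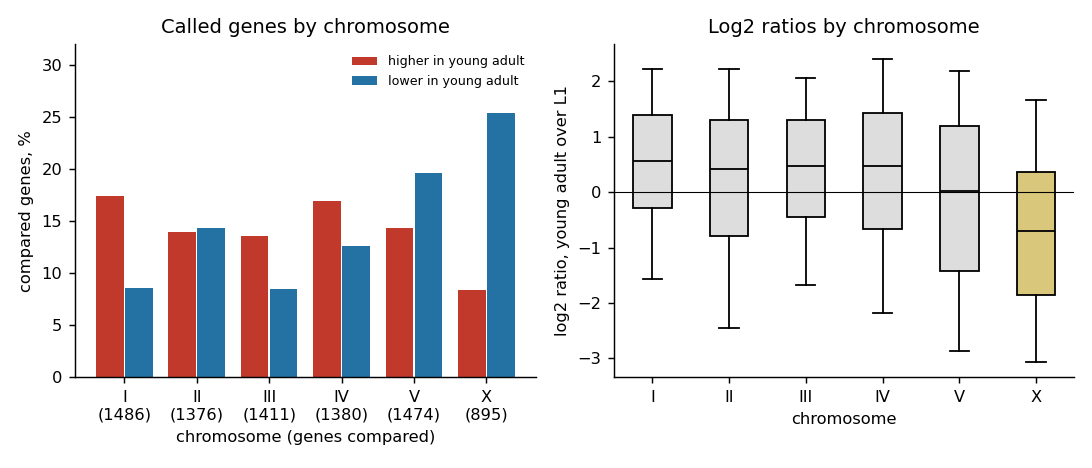
Left, percent of compared genes higher (red) and lower (blue) in the young adult library on each chromosome, with the number compared in parentheses; right, log2 ratios of young adult over L1, with boxes from the first to the third quartile, a line at the median and whiskers at the 10th and 90th percentiles. The X has the largest share of lower genes, 25.4%, and the lowest median, -0.71.

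The series was made to look at transcript complexity, so the make-up of each gene by isoform was compared next. The table splits genes into isoform rows, of which 25422 of 207067 carry a transcript name and the rest the identifier of a read, with no exon structure given. For 4078 genes with 20 or more reads in each library, the share of the gene's reads in each of 87070 rows was set side by side. A row was called where the shares differed by 20 percentage points or more and their 95% Clopper-Pearson intervals did not overlap. Row values are the authors' estimates, often not whole reads, and were rounded for these intervals. The intervals thus treat estimates as counts, and how well they cover the error of such estimates was not tested. This held for 177 rows in 148 genes (3.63%), of which 33 rows carry a transcript name. The leading row was the same in both libraries for 3582 genes (87.8%). Of the called rows 123 had the larger share in the young adult library and 54 the smaller. Among the transcript-named rows 29 were larger and 4 smaller, and over all compared genes transcript-named rows had a share of 17.8% in the young adult library and 15.6% in the L1 library. No gene had transcript-named rows called in both directions.

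**Figure D5:**
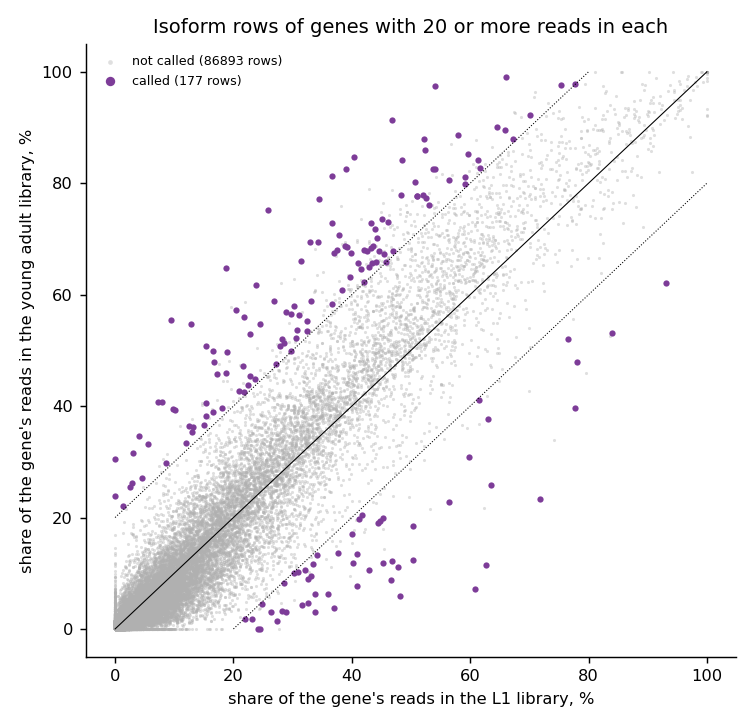
Share of its gene's reads held by each isoform row in the young adult library (vertical) and the L1 library (horizontal), in percent, for the 4078 compared genes; dotted lines mark a difference of 20 points. Most of the 87070 rows lie near the line of equal shares, and the 177 called rows (purple) include 123 above it and 54 below.

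The genes below were picked after their values were seen, by size of the difference among genes with 100 or more reads in each library. In the lectin gene clec-87 the transcript C25A1.8.1, with 3 exons and 960 bases, held 77.2% of 2010 young adult reads (75.3 to 79.0) and 34.4% of 141 L1 reads (26.9 to 43.2). This gene was also higher as a whole. In prmt-1, an arginine methyltransferase gene, 1 read-named row had 302 of the 656 reads in the young adult library and a share of 18.7% among 573 reads in the L1 library, and another had shares of 8.78% and 46.6%. The leading row therefore differed between the libraries, while the gene as a whole was not called. The leading row also differed in W09C5.1, where a read-named row had shares of 43.9% and 22.4% and another 12.2% and 46.7%. In R07E5.19 and Y40B1B.7 a read-named row had a larger and another a smaller young adult share, by 20 points or more, and 1 row led in both libraries. In the translation initiation gene eif-1 a row had a share of 56.1% among 501 reads in the young adult library and of 21.8% among 201 in the L1 library. In the glycogen phosphorylase gene pygl-1 the main row had a share of 62.1% in the young adult library, with 398 reads of the gene, and of 93.1% in the L1 library, with 158, while a second row had 33.3% and 5.54%. Rows of pqn-53, of the malate dehydrogenase gene mdh-2 and of the muscle LIM gene mlp-1 had shares larger by 20 points or more in the young adult library, with 39.3% of 386 reads and 10.1% of 107 reads for mlp-1.

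Among genes with fewer reads, the row ttr-5 C40H1.5.1 had a share of 91.3% of the 30 reads in the young adult library and of 46.8% of the 145 in the L1 library. The peptide-processing gene sbt-1, lower as a whole, had 35.3% of its 82 young adult reads in transcript T03D8.3.1, 22.3 points more than of its 1131 L1 reads. Of the 148 genes, 16 were also higher and 23 lower as genes, and 109 were called neither way. Over all 8043 compared genes, a wider set, 14.5% were higher and 14.2% lower. Rows with 5 or more reads in 1 library and 0 in the other numbered 63 for the young adult library and 131 for the L1 library, of 87070 compared rows. Row values are estimates, so these rows are not shown to belong to 1 stage only. The median compared gene had 16 rows with reads, so shares of single rows depend on how the authors grouped reads.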

How the data were processed

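Native poly-A RNA of young adult, L1 and mixed-stage embryo worms was read on MinION flow cells (R9.4.1), run with MinKNOW 2.1 and base-called by Albacore 2.0.1, per the labels' protocols. Alignment is covered only by minimap2 2.14, named per the submitters' processing notes. Build, annotation, isoform tool and filters were not given in the sources used here. A deposited table of the series gives the authors' estimated counts per isoform row and library, unscaled, and a placeholder of 1e-08 was taken as 0. Deposited tables of single samples hold a coverage signal, which equals those counts times 1.33 in all 3 libraries, and they were used for gene symbols only. Library values of a row may have been made by splitting a pooled estimate, and in 612 rows they do not sum to the pooled value.

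Counts were summed per gene and rounded to whole reads, and 0.5 read was added for log2 ratios. Positions and classes are from Ensembl release 115 (WBcel235), with a position for 8036 compared genes. Read names are listed in rows of more than 1 gene for 1362 genes. Genes, the 69 gene lists and thresholds were chosen with earlier results of these data known. Named genes were the 15 per direction with the bound farthest from 1 and 100 or more reads in the higher library, and the 4 members of each list with most reads. Other genes in the text were chosen after their values were seen. The isoform rule, which asked for a gaining and a losing transcript-named row, was met by 0 genes. Whether library samples were separate cultures is not stated. On simulated reads with these totals and counting error only, 0 of 7616 unchanged genes were called. So few calls follow from the 2-fold bound, and they give no rate of false calls for these libraries. Called in the right direction were 1 of 39 genes at 2-fold, 25 of 40 at 4-fold, 37 of 40 at 8-fold and 40 of 40 at 16-fold. Python 3.11.15 (numpy 2.4.6, pandas 2.3.3, scipy 1.17.1, matplotlib 3.10.9) and R 4.3.3 were used, with scaling factors from edgeR 4.0.16 and DESeq2 1.42.0. Alternatives changed the scaling, the read minimum, the fold bound, the reads added and the rows used.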

Additional observations from a re-analysis of the deposited data

How the results depend on the processing

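The counts of 1163 higher and 1142 lower genes became 1056 and 1202 with edgeR TMM factors, 1138 and 1146 with DESeq2 size factors, and 1095 and 1171 with totals without ribosomal protein, mitochondrially encoded and collagen genes. With a minimum of 100 reads 749 genes were higher and 434 lower, the median log2 ratio was 0.54 and the X median lay 0.81 below that of the autosomes (X minus autosomes -0.81, against -1.14 as reported). With no minimum that median turned to -0.12, and 15.5% of X genes were lower. With a 4-fold bound 332 genes were higher and 528 lower, and 11.1% of X and 5.98% of autosomal genes were lower. With 5 reads added the median was 0.20 and the X median lay less far below that of the autosomes (-0.998). With transcript-named rows only 302 genes were higher and 293 lower, that difference was -0.97, and par-5 turned to a log2 ratio of -0.68. Of 289 named genes 59 lost their call with the 4-fold bound. With transcript-named rows 168 stayed the same, 26 lost and 1 gained a call, and 1, par-5, turned. The rest of the 289 had no result with these rows, so the 26 are not losses out of 289. With TMM factors 3 lost and 3 gained a call. Of the counts of higher and of lower genes per list, 84 moved and 54 stayed the same with transcript-named rows. With the 4-fold bound 73 moved and 65 stayed the same.

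List medians are given in the text only for lists with 10 or more compared members and a median of 0.5 or more from 0, a limit set after seeing which medians turn. Over all lists, 1 of 68 medians turned sign with TMM factors, 0 with DESeq2 factors, 5 with no minimum, 15 of 65 with a minimum of 100 reads, 2 with 5 reads added and 11 of 66 with transcript-named rows only. Among the lists within that limit, medians turned with no minimum for tubulins (-1.37) and F-box genes (-1.36), with a minimum of 100 reads for cytochrome P450 (1.83), insulin-like peptides (2.41), hedgehog-related (0.31) and Skp1-related genes (0.092), and with transcript-named rows for hedgehog-related genes (0.56) and chaperones (-0.10). Genes with an isoform difference numbered 97 of 1748 with a minimum of 50 reads in each library, 13 with a difference of 40 points and 9 of 889 with transcript-named rows. The cause was not tested. No paired analysis was possible because each stage has 1 library. Without replicates no error between samples can be given, and a true 2-fold difference is called by chance only, since the rule asks for a bound of 2-fold.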
